A study of Homo sapiens with 4 samples.

Results

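Lipocalin genes were examined in CD31+ cells derived from H1, a human embryonic stem cell line, and the set comprised 10 of the 58229 genes in the expression table. The members were LCN1, LCN2, LCN6, LCN10, LCN12, LCN15, OBP2A, OBP2B, PAEP and PTGDS, found by gene symbol, and each symbol matched 1 row. They had been chosen from measured values of the same contrast, so their differences between groups are given as a description and carry no test. Cells were taken at day 8 of stepwise hematopoietic differentiation with activin A and BMP4 followed by VEGF and bFGF. The 2 Control libraries came from H1 cells without HAND1 overexpression, and the 2 HAND1_OE libraries from H1 cells that overexpressed HAND1, a basic helix-loop-helix transcription factor of heart, limb and extraembryonic mesoderm. The comparison asks how forced HAND1 changes expression in the CD31+ population from which blood cells arise. Both groups are in vitro derivatives of a single line. The vector carried by the Control cells is not given in the sources used here, and the labels do not say whether replicates were separate cultures, so every p-value below measures only the spread between these libraries.

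Lipocalins are small secreted proteins that fold into a barrel with a pocket for a hydrophobic ligand such as a fatty acid, a steroid, a retinoid, an odorant or an iron-carrying siderophore. Most human lipocalin genes lie on the long arm of chromosome 9 and arose by duplication, which left near-identical copies among them. They are best known from glands, mucosal epithelia, the reproductive tract, granulocytes and the brain lining, and are not classical genes of endothelium or early blood.

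HAND1 itself stood at 12.1 and 14.3 FPKM in Control, against 520 and 517 FPKM in the HAND1_OE libraries, where FPKM counts fragments per kilobase of transcript, scaled to the size of the library. The difference in log2(FPKM + 1) was 5.20 (SE 0.152, adjusted p = 0.00145, limma). The CD31 gene PECAM1 stood at 95.5 and 141 FPKM in Control, against 92.0 and 160 FPKM in HAND1_OE, and all 7 endothelial markers passed the filter, of which VWF was called higher. Genes at or above 1 FPKM numbered 13989 to 14542 per library. From the step size of low values, the libraries were estimated to hold 21500000 to 26100000 fragments. SLC25A6, a pseudoautosomal gene that most cells use, was listed at 0 in every library after the Y copies of such genes were left out. A gene with such a copy and listed at 0 thus need not have been silent. Whether a 0 means silence for other genes was not tested.

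Of the 10 lipocalin genes, 7 were higher in both HAND1_OE libraries than in both Control libraries, 2 were lower in both, and LCN10 overlapped. Across the 29860 genes above 0 in any library, 13.6% lay apart in the higher direction and 24.7% in the lower direction. The summed level of the 10 genes was 8.06 and 10.3 FPKM in Control and 129 and 73.6 FPKM in HAND1_OE. LCN1 alone made up most of the sum in HAND1_OE replicate 1, at 74.1 FPKM. In replicate 2 it was at 28.4 FPKM, below LCN15 at 30.6 FPKM. Only 5 of the 10 passed the filter of at least 1 FPKM in at least 2 libraries, namely LCN1, OBP2A, OBP2B, PAEP and LCN15. All 5 reached 1 FPKM in both HAND1_OE libraries, whereas in Control a single member, LCN15, did so in both. LCN1, OBP2A, OBP2B and PAEP were below 1 FPKM in both Control libraries, so they could pass the filter only through HAND1_OE. For these genes the filter fixed that difference, and nothing is read from it. In the fit across all genes 4 members were called higher, beside 2.04% of the 14622 genes tested. Since the members were chosen on this contrast, nothing is read from that count.

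**Figure D1:**
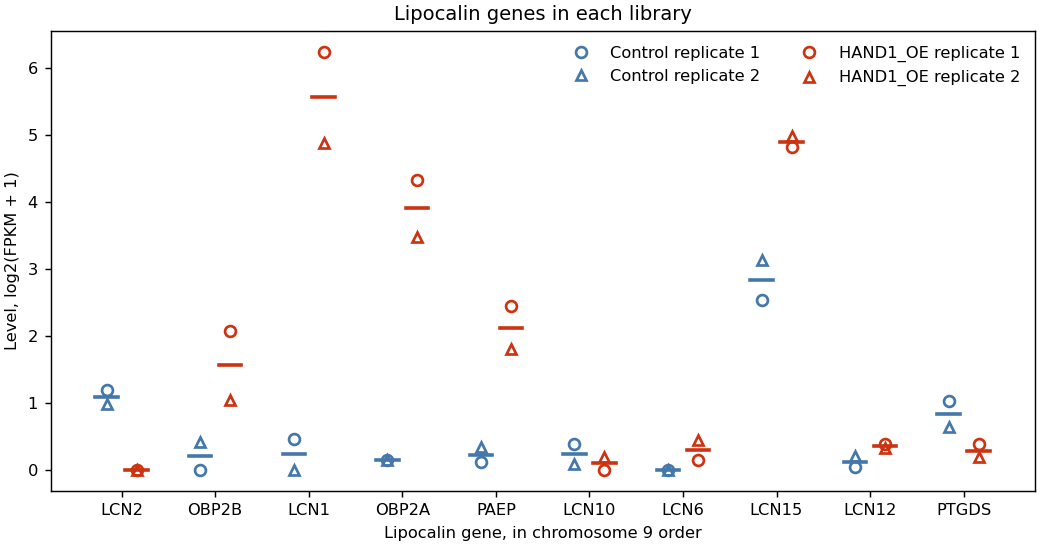
Level of each lipocalin gene in each library as log2(FPKM + 1), in chromosome 9 order, with circles for replicate 1, triangles for replicate 2 and short lines for the mean of the 2 libraries of a group. LCN1, OBP2A, PAEP, OBP2B and LCN15 sat higher in both HAND1_OE libraries, and LCN2 was listed at 0 in both.

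The letters upstream of the 5 members that passed the filter are shown because 3 of these genes are neighbours and another 2 are near-identical copies. The sequences are RefSeq promoter windows of 300 bases on GRCh38.p14, from 250 bases before the annotated start to 50 after it, 5′ to 3′ on the strand of the gene. Capitals mark TATAAA, the letters of a TATA box, and CANNTG, the letters of an E-box, the element that HAND1-type factors bind as dimers. The windows are LCN1 at chr9:135521190-135521489 on the plus strand, OBP2A at chr9:135545876-135546175 on the plus strand, OBP2B at chr9:133209201-133209500 on the minus strand, PAEP at chr9:135561506-135561805 on the plus strand and LCN15 at chr9:136764469-136764768 on the minus strand.
LCN1: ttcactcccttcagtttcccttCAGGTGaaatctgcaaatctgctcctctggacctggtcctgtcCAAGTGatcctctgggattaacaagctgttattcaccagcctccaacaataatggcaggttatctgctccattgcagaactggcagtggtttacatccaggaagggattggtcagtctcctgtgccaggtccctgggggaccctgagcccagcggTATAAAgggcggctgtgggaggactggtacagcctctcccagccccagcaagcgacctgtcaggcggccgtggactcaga
OBP2A: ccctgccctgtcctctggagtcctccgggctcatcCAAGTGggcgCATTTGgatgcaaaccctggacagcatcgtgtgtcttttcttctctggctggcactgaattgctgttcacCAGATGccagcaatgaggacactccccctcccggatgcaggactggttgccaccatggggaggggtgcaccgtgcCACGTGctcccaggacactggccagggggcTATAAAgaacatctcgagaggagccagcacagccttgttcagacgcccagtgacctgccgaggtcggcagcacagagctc
OBP2B: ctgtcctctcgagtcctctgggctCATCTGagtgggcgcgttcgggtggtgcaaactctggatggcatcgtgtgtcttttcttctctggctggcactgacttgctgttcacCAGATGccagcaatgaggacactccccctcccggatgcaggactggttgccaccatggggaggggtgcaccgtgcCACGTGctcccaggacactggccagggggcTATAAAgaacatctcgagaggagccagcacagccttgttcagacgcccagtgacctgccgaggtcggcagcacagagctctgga
PAEP: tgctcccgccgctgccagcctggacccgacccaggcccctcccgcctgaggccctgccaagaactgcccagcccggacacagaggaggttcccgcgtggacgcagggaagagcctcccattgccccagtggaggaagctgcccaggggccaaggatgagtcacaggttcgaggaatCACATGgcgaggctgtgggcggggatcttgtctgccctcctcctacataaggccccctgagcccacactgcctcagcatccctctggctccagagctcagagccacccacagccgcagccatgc
LCN15: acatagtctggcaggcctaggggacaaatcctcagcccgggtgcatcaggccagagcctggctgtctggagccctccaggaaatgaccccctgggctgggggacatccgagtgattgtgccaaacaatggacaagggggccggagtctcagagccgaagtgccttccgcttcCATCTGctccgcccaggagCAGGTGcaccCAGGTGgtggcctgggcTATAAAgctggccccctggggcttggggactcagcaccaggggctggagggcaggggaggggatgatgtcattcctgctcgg

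The TATA letters lay at almost the same place in 4 of these 5 windows. Counted from the RefSeq start as 0, the first base of TATAAA was at -30 in LCN1, -30 in OBP2A, -34 in OBP2B and -32 in LCN15, and PAEP had none. LCN6, which is not printed, had it at -28. Near variants were not counted, and the LCN2 and PTGDS windows, also not printed, both hold CATAAATAGGG before the start. Searched on both strands, TATAAA occurred in 5 of the 10 lipocalin promoters and in 11.5% of the 35116 RefSeq promoters of this length. A window of 20 to 40 bases before the start on the gene strand was not part of the planned search. Within it, TATAAA was found in the same 5 lipocalin promoters and in 2.3% of all promoters. The members are related by duplication, so these are not 5 independent promoters.

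E-box letters were common in general. CANNTG was present in all 10 lipocalin promoters, from 1 match in PAEP and LCN6 to 5 in LCN12, and in 68.7% of all promoters. CATCTG, a case of CANNTG, was present in 3 of the 10 (OBP2A, OBP2B and LCN15), against 14.7% of all promoters. CGTCTG, a variant E-box described for HAND1 that is no case of CANNTG, was present in OBP2A and OBP2B, against 9.4%. CACGTG, a case of CANNTG added to the search after the sequences were seen, was present in the same 2 genes, at -60 in OBP2A and -64 in OBP2B, against 7.3%. A letter match is not a measured binding site, and no binding was measured here.

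**Figure D2:**
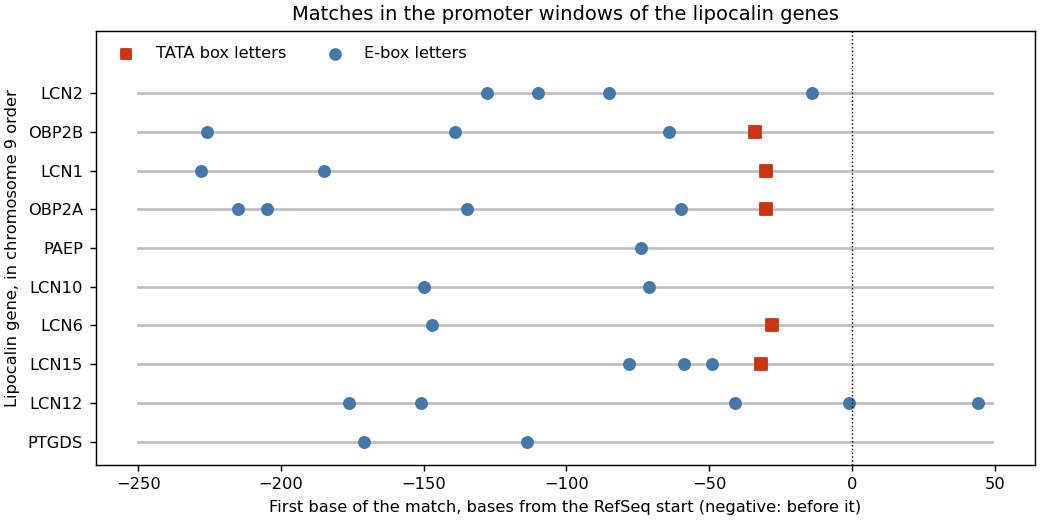
Position of the first base of each match to the TATA box letters (squares) and the E-box letters (circles) in the promoter windows of the 10 lipocalin genes, in bases from the RefSeq start, with the window drawn as a grey line. The squares line up between -34 and -28 in 5 genes, while the circles scatter over the windows.

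LCN1 (ENSG00000160349.9, chromosome 9, 135521438 to 135526532, plus strand, GRCh38) encodes tear lipocalin, a lipid scavenger of tear fluid and of the von Ebner glands of the tongue. Control replicates 1 and 2 gave 0.380 and 0 FPKM, and HAND1_OE replicates 1 and 2 gave 74.1 and 28.4 FPKM. The Control values correspond to about 4.0 to 4.1 fragments in replicate 1 and none in replicate 2, whereas the HAND1_OE values correspond to an estimated 942 to 965 and 307 to 314 fragments. LCN1 therefore went from a handful of fragments to the upper part of the table: its mean moved from above 65.9% of all genes to above 97.0%. The group means were 0.190 ± 0.268 and 51.3 ± 32.3 FPKM (SD, n = 2), and the difference in log2(FPKM + 1) was 5.32. By size that difference ranked 2 among the 14622 genes tested, above that of HAND1. No ratio is given because the Control level rests on so few fragments. The HAND1_OE libraries differed by 2.61-fold from each other.

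OBP2A (ENSG00000122136.13, 135546139 to 135549969, plus strand) starts 19.6 kb after the end of LCN1 and encodes an odorant-binding protein of nasal and oral secretions. It was listed at 0.103 and 0.112 FPKM in Control, which is 0.7 to 1.5 fragments in either library, and at 19.1 and 10.1 FPKM in HAND1_OE. The range of fragments reflects the transcript lengths of the gene, and in HAND1_OE it ran from 164 to 317 in replicate 1 and from 72.4 to 144 in replicate 2. The difference in log2(FPKM + 1) was 3.75, with means of 0.108 ± 0.00631 and 14.6 ± 6.37 FPKM. As with LCN1, both HAND1_OE libraries lay far above both Control libraries, and replicate 1 was the higher of them.

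OBP2B (ENSG00000171102.14, 133205277 to 133209250, minus strand) is the near-identical copy of OBP2A and lies 2312.2 kb before LCN1. It was listed at 0 and 0.339 FPKM in Control, against 3.21 and 1.06 FPKM in HAND1_OE, with a difference in log2(FPKM + 1) of 1.35. Its lower HAND1_OE library held an estimated 9.7 to 16.2 fragments and its higher Control library 3.0 to 5.0, so the separation between groups rested on few fragments.

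PAEP (ENSG00000122133.16, 135561756 to 135566955, plus strand), the next gene after OBP2A at a distance of 11.8 kb, encodes glycodelin, the main secretory protein of the progestational endometrium. It was listed at 0.0847 and 0.260 FPKM in Control, against 4.43 and 2.49 FPKM in HAND1_OE. The difference in log2(FPKM + 1) was 1.90, with means of 0.172 ± 0.124 and 3.46 ± 1.37 FPKM. All 3 genes of the LCN1, OBP2A and PAEP stretch were thus near 0 in Control and higher in both HAND1_OE libraries, in a falling order along the chromosome from LCN1 to PAEP.

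Within HAND1_OE the 3 neighbours also shared their order of libraries. In Control they did not, since LCN1 was higher in replicate 1 but OBP2A and PAEP in replicate 2. HAND1_OE replicate 1 exceeded replicate 2 by 2.61-fold for LCN1, 1.89-fold for OBP2A and 1.78-fold for PAEP, and by 3.03-fold for the distant copy OBP2B, but not for LCN15, whose ratio was 0.884. Over 14520 genes above 0 in both libraries the median ratio was 0.994, and 4.06% of genes had a ratio at or above that of PAEP. The order was not particular to this stretch. CRABP2 on chromosome 1 was at 768 and 431 FPKM in HAND1_OE. Of the members near the floor, PTGDS had a ratio of 2.07 and LCN6 of 0.282. Within a library, LCN1 was 3.88 and 2.82 times the FPKM of OBP2A, and OBP2A was 4.31 and 4.04 times that of PAEP. In bulk RNA a change in the share of cells that express these genes and a change in RNA per cell cannot be told apart.

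LCN15 (ENSG00000177984.6, 136759634 to 136766255, minus strand), a little studied lipocalin, was the only member with a clear level in Control. It was listed at 4.82 and 7.79 FPKM in Control, against 27.1 and 30.6 FPKM in HAND1_OE. These values correspond to about 50.6 and 81.6 fragments in Control and 343 and 329 fragments in HAND1_OE, since its coding annotation has a single transcript. The mean went from 6.30 ± 2.10 to 28.8 ± 2.50 FPKM, a 4.58-fold difference and 2.06 in log2(FPKM + 1), and the HAND1_OE libraries were closer to each other than for LCN1.

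The other lipocalin genes around LCN15 were near 0 in both groups. LCN10 (136738167 to 136743356) and LCN6 (136744011 to 136748528), minus strand genes known from the epididymis, end 11.1 kb or more before LCN15 and are 0.7 kb apart. LCN10 was listed at 0.312 and 0.0616 FPKM in Control, against 0 and 0.147 FPKM in HAND1_OE, so the groups overlapped. LCN6 was listed at 0 in both Control libraries, against 0.104 and 0.368 FPKM in HAND1_OE, an estimated 1.2 to 2.0 and 3.6 to 6.1 fragments. LCN12 (136949551 to 136955497, plus strand) was listed at 0.0297 and 0.153 FPKM in Control, against 0.303 and 0.255 FPKM in HAND1_OE, which is at most 2.4 fragments in any library. LCN10 and LCN6 share their span with another gene model, AL355987.1, so reads there may be divided between the 3 entries.

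Both members that were lower in HAND1_OE have known roles outside the glands. LCN2 (ENSG00000148346.11, 128149071 to 128153455, plus strand), the neutrophil gelatinase-associated lipocalin that withholds iron from bacteria, was listed at 1.29 and 0.983 FPKM in Control but at 0 in either HAND1_OE library. Its Control level corresponds to 9.8 to 16.1 and 7.5 to 12.1 fragments. PTGDS (ENSG00000107317.12, 136975092 to 136981742, plus strand), the lipocalin-type prostaglandin D2 synthase and the enzyme of the family, was listed at 1.04 and 0.554 FPKM in Control, against 0.300 and 0.145 FPKM in HAND1_OE. PTGDS had at most 11.9 fragments in any library, so its direction rested on few fragments, and no fold is given for LCN2 because the HAND1_OE libraries are at 0.

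Ordered by mean FPKM, which is per length, Control had LCN15 first, then LCN2 and PTGDS, and the other 7 below 0.2 FPKM. The Control values of LCN2 and PTGDS overlapped. In HAND1_OE the order was LCN1, LCN15, OBP2A, PAEP and OBP2B, with the other 5 under 0.4 FPKM in each library. LCN1 and LCN15 overlapped in that order, as did PAEP and OBP2B, while OBP2A lay between the pairs without touching either.

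The copies bear on how far single values can be trusted, since the short reads of a shared stretch fit either copy. OBP2A and OBP2B transcripts were 97.0% identical over 701 aligned bases, with an identical run of 210 bases, and their promoters were 96.2% identical. LCN1 and its unprocessed pseudogene LCN1P1 (133224905 to 133228591, minus strand), which lies beside OBP2B, were 96.2% identical over 500 aligned bases. The other 44 pairs of member coding sequences were 60.3% to 73.3% identical, with no identical run longer than 21 bases. The stretches below, from GENCODE transcripts, are the 90 bases with the most differences in the earlier part of each pair, and capitals mark the differences. Only stretches without gaps were considered, and the last part of each sequence was not searched. They cover bases 281 to 370 of the OBP2A and OBP2B coding sequences, with 9 differences, and bases 164 to 253 of the LCN1 coding sequence and of the LCN1P1 transcript, with 7 differences.
OBP2A coding: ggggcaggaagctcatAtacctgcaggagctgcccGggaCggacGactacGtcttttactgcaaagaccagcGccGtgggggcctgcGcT
OBP2B coding: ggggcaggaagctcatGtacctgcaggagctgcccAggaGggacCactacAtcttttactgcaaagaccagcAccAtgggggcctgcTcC
LCN1 coding: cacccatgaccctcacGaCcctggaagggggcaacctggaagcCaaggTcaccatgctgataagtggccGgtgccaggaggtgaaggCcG
LCN1P1 transcript: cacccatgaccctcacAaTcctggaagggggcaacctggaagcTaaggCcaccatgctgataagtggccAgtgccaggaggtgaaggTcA

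Summing the copies lessens the effect of that division. It does not remove it, since FPKM is per length and the copies differ in length. LCN1 with LCN1P1 stood at 0.380 and 0 FPKM in Control, against 74.5 and 28.4 FPKM in HAND1_OE, and LCN1P1 alone was above 0 in a single library, at 0.337 FPKM in HAND1_OE replicate 1. OBP2A with OBP2B stood at 0.103 and 0.451 FPKM in Control, against 22.3 and 11.1 FPKM in HAND1_OE. OBP2B was 16.8% and 10.5% of OBP2A in the HAND1_OE libraries, so the reads of the pair were assigned mainly to OBP2A. Whether OBP2B has transcripts of its own here was not tested.

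Along chromosome 9 the members fell into 4 neighbourhoods, and few of the genes around them were called. Within 250 kb of any member the table held 149 other genes, of which 73 were tested, 3 were called higher and 1 lower (limma, adjusted p under 0.05), beside 2.04% higher and 2.11% lower over all genes tested. Around LCN1, OBP2A and PAEP there were 16 genes, 6 of them tested and 0 called, with 2 higher at an unadjusted p under 0.05. The largest of these differences was C9orf116, at 1.56 and 2.35 FPKM in Control and 8.19 and 4.25 FPKM in HAND1_OE (1.25, adjusted p = 0.112, limma), and it was called without HAND1_OE replicate 2 (adjusted p = 0.0238, limma). Around LCN2, 18 genes were tested and 0 called, with 2 lower at an unadjusted p under 0.05.

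The 3 called higher lay in the neighbourhood of LCN10 to PTGDS, where 35 genes were tested. CCDC183 was at 19.2 and 15.4 FPKM in Control and 50.8 and 42.9 FPKM in HAND1_OE (1.39, adjusted p = 0.0210, limma). AL355987.4 (1.15, adjusted p = 0.0322) and CCDC183-AS1 (1.23, adjusted p = 0.0335) overlap CCDC183, the latter as its antisense gene. The strand setting of the counting is not given in the sources used here, so the reads of the 3 cannot be told apart and they may be 1 signal. The gene called lower, near OBP2B, was GFI1B, a transcriptional repressor that erythroid and megakaryocyte differentiation requires, at 12.3 and 12.01 FPKM in Control and 0.956 and 0.232 FPKM in HAND1_OE (-3.08, adjusted p = 0.00754, limma). Without Control replicate 2 GFI1B alone of these 4 was called, and without Control replicate 1 GFI1B and CCDC183 were. AL355987.4 was not called without HAND1_OE replicate 1 (adjusted p = 0.0644, limma), nor CCDC183-AS1 without HAND1_OE replicate 2 (adjusted p = 0.0808, limma).

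**Figure D3:**
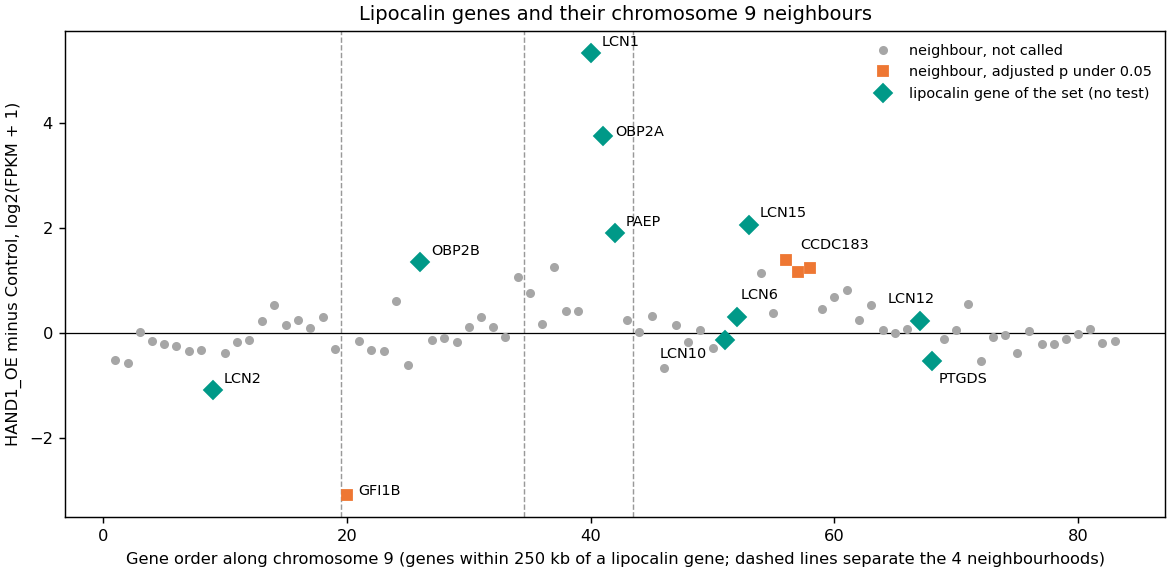
Difference between HAND1_OE and Control in log2(FPKM + 1) for the 10 lipocalin genes (diamonds) and the 73 tested neighbours (circles, or squares where the adjusted p was under 0.05), in gene order along chromosome 9, with dashed lines between the 4 neighbourhoods. LCN1 at 5.32, OBP2A at 3.75 and PAEP at 1.90 stand above their neighbours, and GFI1B at -3.08 is the lowest point.

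Other genes of the lipocalin family were mostly near 0. Of 12 further lipocalin genes only RBP4 and APOM, carriers of retinol and of sphingosine-1-phosphate, passed the filter. RBP4 was at 3.22 and 6.23 FPKM in Control and 3.77 and 15.7 FPKM in HAND1_OE (adjusted p = 0.661, limma), so the groups overlapped. APOM had an adjusted p = 0.512 (limma), and 0 of both were called in limma, with 0 at an unadjusted p under 0.05 as well. LCN1P2, ORM1 and ORM2 were listed at 0 in every library. C8G, the complement lipocalin, was at 0.853 and 0.722 FPKM in Control and listed at 0 in HAND1_OE. LCN8 and LCN9, which lie among the members on chromosome 9, were below 1 FPKM in every library.

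Among 16 intracellular lipid-binding proteins, the sister family that carries fatty acids and retinoids inside cells, 7 were tested and 1 was called higher. Over all genes tested 2.04% were called higher and 2.11% lower. CRABP2, which delivers retinoic acid to the nucleus, rose from 59.3 and 35.4 FPKM to 768 and 431 FPKM (3.62, SE 0.358, adjusted p = 0.0100, limma). Like LCN1 and OBP2A, it was higher in HAND1_OE replicate 1 than in replicate 2. FABP4 was at 0.346 and 0.198 FPKM in Control and 1.12 and 1.10 FPKM in HAND1_OE and did not pass the test (adjusted p = 0.161, limma).

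Receptors and partners of the lipocalins were read as a list of their own. LMBR1L, the cell surface receptor for LCN1, was at 53.8 and 48.9 FPKM in Control and 48.7 and 51.5 FPKM in HAND1_OE (adjusted p = 0.945, limma). SLC22A17, a receptor for LCN2, had an adjusted p = 0.866. MMP9, the gelatinase that LCN2 binds, was at 99.3 and 61.1 FPKM in Control and 39.3 and 22.6 FPKM in HAND1_OE (-1.36, adjusted p = 0.105, limma), and it was called without HAND1_OE replicate 1 (adjusted p = 0.0251, limma). Of the 6 genes 4 were tested and 0 called in limma, with 1 lower at an unadjusted p under 0.05, beside 1554 of all 14622 genes tested.

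PTGDS makes prostaglandin D2 from the product of the cyclooxygenases. Of 26 genes of that pathway 17 were tested, 1 was called higher and 2 lower, beside 2.04% higher and 2.11% lower over all genes tested. PTGS1, the constitutive cyclooxygenase upstream of PTGDS, fell from 9.34 and 13.4 FPKM to 0.808 and 0.717 FPKM (-2.79, adjusted p = 0.00730, limma). ABCC4, a transporter that exports prostaglandins among other anions, fell from 8.19 and 13.1 FPKM to 2.49 and 3.13 FPKM (-1.59, adjusted p = 0.0355, limma), a call lost without Control replicate 2 (adjusted p = 0.0941, limma). PPARG, the nuclear receptor for which prostaglandin D2 derivatives are ligands, rose from 1.77 and 0.940 FPKM to 35.5 and 28.0 FPKM (3.81, adjusted p = 0.00607, limma). TBXAS1, the thromboxane synthase, was at 3.87 and 4.36 FPKM in Control and 1.61 and 0.713 FPKM in HAND1_OE and did not pass the test (adjusted p = 0.0651, limma), but did without HAND1_OE replicate 1 (adjusted p = 0.0267, limma). PTGDR2, a receptor for prostaglandin D2, was at 0.847 and 1.15 FPKM in Control and 0.132 and 0.1003 FPKM in HAND1_OE and was below the filter. The hematopoietic synthase HPGDS was at or near 0 in every library.

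**Figure D4:**
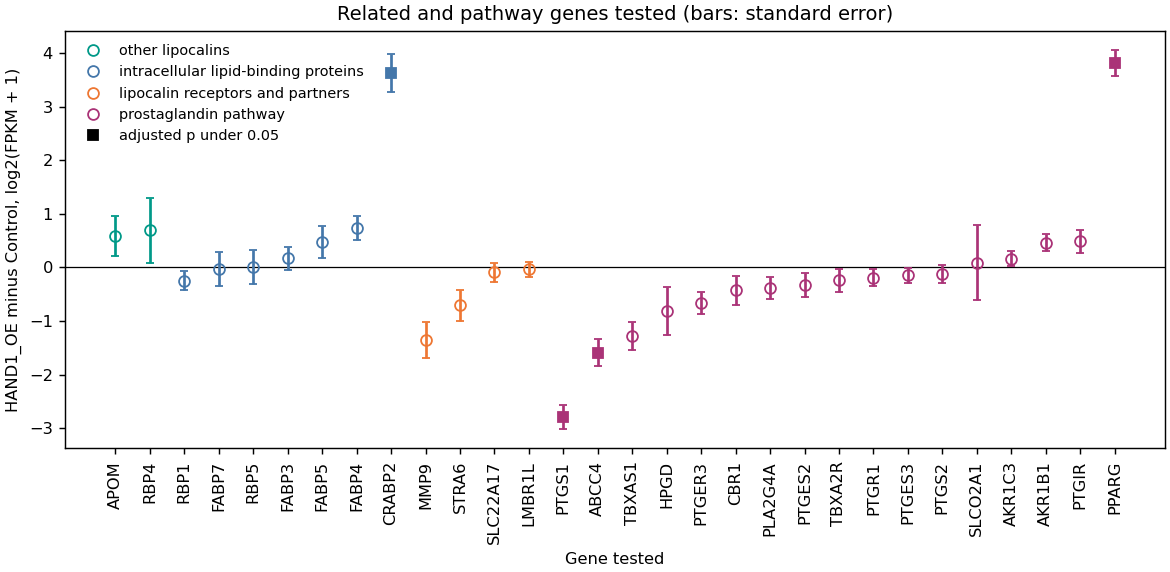
Difference between HAND1_OE and Control in log2(FPKM + 1), with the standard error from limma as bars, for the tested genes of the 4 related lists, where filled squares mark an adjusted p under 0.05. CRABP2 at 3.62 and PPARG at 3.81 are the high points and PTGS1 at -2.79 is the lowest.

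Markers of some tissues where these lipocalins are known, and of trophoblast, were measured beside them. Of 8 lacrimal and tongue gland genes, LACRT, OPRPN and SCGB1D1 were listed at 0 in every library. The sum of the list was 17.3 and 14.9 FPKM in Control and 4.73 and 4.49 FPKM in HAND1_OE, most of it PRR4 and LYZ. PRR4 was at 11.5 and 4.03 FPKM in Control and 3.77 and 3.58 FPKM in HAND1_OE (adjusted p = 0.458, limma). LYZ, also a macrophage gene, fell (adjusted p = 0.0220, limma), and the groups overlapped for ZG16B. Of 7 epithelial genes all were tested and 0 called in limma, with 0 at an unadjusted p under 0.05, and their sum was 234 to 250 FPKM in Control and 270 to 335 FPKM in HAND1_OE. The part of epithelial cells in the LCN1 and OBP2A values was not tested.

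Of 8 neutrophil granule genes, set beside LCN2, ELANE, PRTN3 and CAMP were listed at 0 in every library, and the sum was 1.96 to 2.45 FPKM in Control and 0.355 to 1.04 FPKM in HAND1_OE, nearly all of it AZU1. The 5 choroid plexus and leptomeninges genes, set beside PTGDS, summed to 60.4 and 97.6 FPKM in Control and 53.5 and 197 FPKM in HAND1_OE. Most of the sum was TTR, whose groups overlapped, as did those of FOLR1. CLIC6, SLC13A4 and KL were lower in both HAND1_OE libraries, as PTGDS was, beside 24.7% of all genes above 0 in any library. Of that list 4 were tested and 0 called in limma, with 2 lower at an unadjusted p under 0.05, beside 1554 of all 14622 genes tested. The 5 trophoblast genes, set beside PAEP, summed to 0.824 to 1.30 FPKM over the 4 libraries. Trophoblast is not the endometrium from which PAEP is known, and endometrial markers were not listed.

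Profiles over the 4 libraries were compared by Euclidean distance on log2(FPKM + 1) after subtraction of the Control mean, with the other members left out. Nearest to LCN1 were HAND1 at a distance of 1.08, BARHL1 at 1.82, KCNIP4 at 2.00, PPARG at 2.26 and XAF1 at 2.42. BARHL1 also lies on chromosome 9 between OBP2B and LCN2, and was at 0.132 and 0.0989 FPKM in Control and 21.5 and 16.6 FPKM in HAND1_OE. The genes nearest to OBP2A were PRRT4 at 0.240, XAF1 at 0.486, PPARG at 0.532, CRABP2 at 0.554 and ARHGAP22 at 0.580. These are the closest of the genes tested outside the lipocalin set. They were picked for their values in the same libraries, and 4 libraries give little power to tell profiles apart. The distance between OBP2A and LCN1 themselves was 2.28, below that of XAF1, and that between PAEP and LCN1 was 4.90.

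**Figure D5:**
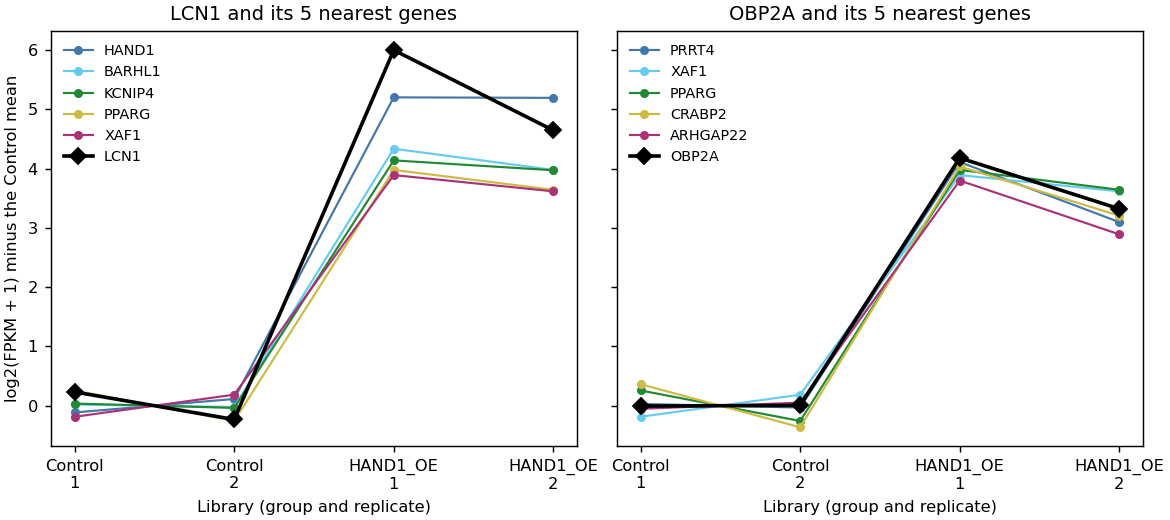
Level in each library as log2(FPKM + 1) minus the Control mean, for LCN1 (left) and OBP2A (right) in black and the 5 nearest genes of each outside the lipocalin set in colour. HAND1 was level across the HAND1_OE libraries, while LCN1 and OBP2A were higher in replicate 1 than in replicate 2.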

How the data were processed

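RNA was measured in CD31+ cells in 2 Control and 2 HAND1_OE libraries, grouped by sample title. The authors deposited a single table of 1 value per gene and library, taken to be FPKM from its values and the study's plots. The submitters' processing notes name BWA, Bowtie, RSEM and hg19, but the coordinates of the table match GRCh38. The authors did not state the scaling between libraries. RSEM divides reads shared by near-identical copies by an estimate. Of 58365 rows, 45 Y copies of pseudoautosomal genes and 91 rows with a repeated gene ID were left out. Of the 58229 genes kept, 55605 matched GENCODE release 29 by versioned ID.

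A filter of at least 1 FPKM in 2 or more libraries left 14622 genes. Their log2(FPKM + 1) values were fitted with a mean-variance trend by limma 3.58.1 under R 4.3.3, and two-sided p-values received Benjamini-Hochberg adjustment across these genes. The fit was also run on simulated data drawn with its own fitted spread. That setting meets the assumptions of the fit, so it does not test how the fit behaves on these libraries. The members and lists were chosen with earlier results of these data known. Named genes were the members, HAND1, the called genes of each list and of the neighbours within 250 kb, and genes that a result turned on. Added to them were the 5 genes nearest to LCN1 and to OBP2A, members left out. Fragments were estimated, by a method chosen after seeing the data, from 21055 genes with a single transcript over 400 nt, where 93.9% to 94.6% of low values lay within 0.05 of a whole number from 1 to 5. A range spans the shortest and longest coding transcript, and counting error is not included. Identities came from pairwise alignment in Biopython 1.88, and promoters from RefSeq on GRCh38.p14, where all 10 members matched. Alternatives were another pseudocount, filter or normalization, no trend, a replicate block and each library left out.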

Additional observations from a re-analysis of the deposited data

How the results depend on the processing

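With 2 libraries a group, counts moved with the filter and with single libraries, and LCN10, whose groups overlap, went in its log2 difference from -0.14 to 0.013 without Control replicate 1. When all 29860 genes above 0 were tested, 0 were called higher and 0 lower by limma (1458 and 2352 at an unadjusted p under 0.05), and the lipid-binding, prostaglandin and neighbour counts were also 0. With at least 1 FPKM in every library the prostaglandin count was 1, since PTGS1 and PPARG did not meet that filter. Leaving out a library each time gave 134 to 266 genes higher (fewest without Control replicate 2, and 141 without Control replicate 1) and 137 to 309 lower (137 without Control replicate 2 and 144 without Control replicate 1). It gave 2 to 4 prostaglandin genes (ABCC4 lost without Control replicate 2, TBXAS1 added without HAND1_OE replicate 1), 1 to 5 neighbours (C9orf116 and ADAMTS13 added without HAND1_OE replicate 2) and 0 to 1 receptors (MMP9 without HAND1_OE replicate 1). The lone library left in a group was assumed to vary like the others. With a pseudocount of 0.1 the difference was 7.71 for LCN1 and 6.07 for OBP2A. Under quantile normalization they were 5.32 and 3.78, and under median-ratio scaling 5.37 and 3.80. Values at 1 FPKM or less rest on few fragments and set no fold.

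Same-numbered replicates deviated together across 14622 genes (r = 0.383), but only 2 pairs exist and nothing else ties them, so they were taken to share only a number. With the replicate block 597 genes were called higher and 712 lower, 11 neighbours, among them ST6GALNAC4 and ST6GALNAC6 beside LCN2, and 1 receptor or partner, MMP9.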
